A study of Mus musculus with 6 samples.

Results

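The interferon regulatory factors are a family of transcription factors that share a DNA-binding domain, and 8 of them are described here: Irf7, Irf3, Irf5, Irf9, Irf1, Irf2, Irf8 and Irf4. The members are genes of this family by name, and the family was picked with earlier results of these data known. They are 8 of 27670 named genes on the array, and they are read by 12 probes. Irf1, Irf3, Irf8 and Irf9 have 2 probes each and the other 4 genes have 1. The array files carry Irf9 under its older symbol Isgf3g, and it was matched through the transcript accession of its probes.

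The cells were 4T1.2, a metastatic line derived from a mammary tumour of BALB/c mice. The IRF7 group carried Irf7 in the pMSCV retroviral vector, and the base-vector group carried the vector alone. Both groups were selected with puromycin and single-cell cloned, and several clones were then pooled, so each group is a pool of clones of 1 line. Each group has 3 arrays from independent experiments, hybridised with Cy3-labelled cRNA on single-colour Agilent mouse arrays. The comparison asks how the family and the genes around it differ in cells made to express Irf7. The arrays of a group repeat the same kind of pool, so the carried Irf7 and any other difference between the pools of clones cannot be told apart.

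Irf3 and Irf7 wait in the cytoplasm until sensors of viral nucleic acid switch on the kinases that phosphorylate them, and then they enter the nucleus and start transcription of the type I interferons. The secreted interferon binds its receptor and activates STAT proteins, which join Irf9 in the complex that binds the interferon-stimulated response element of many antiviral genes. Irf7 is itself one of those antiviral genes, so the family is wired as a loop, while Irf1, Irf2, Irf4, Irf5 and Irf8 act in other branches of the immune response.

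On each array 54.3% to 59.7% of the gene spots were well above background, and arrays of the same group correlated more closely (Pearson's r 0.995 to 0.997) than arrays of different groups (0.978 to 0.980). All 3 IRF7 arrays and base-vector replicate 1 lay on slide 1 in a first scan, and base-vector replicates 2 and 3 lay on slide 2 in a second scan, so values from slide 1 alone are given for each member. Levels are log2 of the processed signal minus the 75th percentile of the array, and a level of 0 is that percentile. A change is the IRF7 mean minus the base-vector mean on this scale. It was tested with limma over 15414 genes, or over 23518 probes for a second probe, and p-values were adjusted by Benjamini-Hochberg (threshold 0.05). Among all genes tested 61.0% passed, 31.9% higher and 29.1% lower in IRF7 cells, with a median change of 0.03. Left unscaled, the signals gave a median change of 0.23, and 79.1% of the genes that passed were then higher in IRF7 cells, against 52.3% with scaling.

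For 3 of the 12 probes the files give a genomic span longer than the 60 bases of the probe, as for a probe split between exons. These probes are called spliced below on their span alone, since exon positions were not analysed. Their sequences are shown because 1 of them is the only Irf7 probe and the other 2 give a second reading of Irf9 and Irf1. The Irf7 probe A_51_P421876 spans 351 bases on the minus strand at chr7:137682028-137682378. The Irf9 probe A_52_P176013 spans 211 bases on the plus strand at chr14:50473491-50473701, and the Irf1 probe A_52_P175685 spans 146 bases on the plus strand at chr11:53730701-53730846. These positions are in the mm7 build, as the files give them.
Irf7 probe: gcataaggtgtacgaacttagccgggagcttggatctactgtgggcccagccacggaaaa
Irf9 probe: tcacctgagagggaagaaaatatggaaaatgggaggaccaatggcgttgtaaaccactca
Irf1 probe: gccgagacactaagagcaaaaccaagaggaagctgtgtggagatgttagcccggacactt

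The stretch of 250 bases before each start site was searched on both strands for the core of the interferon-stimulated response element, GAAANNGAAA, which interferon regulatory factors and the Irf9 complex bind, and for the gamma-activated site, TTCNNNGAA, which pairs of STAT proteins bind. The RefSeq promoter table in build GRCm38.p6 held all 8 genes, some of them with a second start. The first motif was present in 2.98% of 32851 promoters and the second in 7.02%. Counted per gene, with a match before any of its starts, the shares were 3.46% and 8.13% of 27025 genes. Among the 8 genes, Irf2 held the response element core, 241 bases before its start. Gamma-activated sites were found in Irf1 (90 bases before the start), Irf2 (224 bases) and Irf8 (171 and 153 bases). Irf3, Irf4, Irf5, Irf7 and Irf9 held neither motif in this window. Below are the promoters with a match and that of Irf7, the gene the vector carries, at chr7:141266425-141266674 (minus strand) for Irf7, chr11:53769764-53770013 (plus) for Irf1, chr8:46739495-46739744 (plus) for Irf2 and chr8:120736108-120736357 (plus) for Irf8. Capitals mark the motifs, which do not overlap.
Irf7 promoter: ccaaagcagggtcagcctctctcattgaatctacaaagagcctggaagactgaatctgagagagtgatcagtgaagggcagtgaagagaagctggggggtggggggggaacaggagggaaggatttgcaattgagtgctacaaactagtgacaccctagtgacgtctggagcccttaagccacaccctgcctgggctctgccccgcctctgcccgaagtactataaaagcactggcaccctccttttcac
Irf1 promoter: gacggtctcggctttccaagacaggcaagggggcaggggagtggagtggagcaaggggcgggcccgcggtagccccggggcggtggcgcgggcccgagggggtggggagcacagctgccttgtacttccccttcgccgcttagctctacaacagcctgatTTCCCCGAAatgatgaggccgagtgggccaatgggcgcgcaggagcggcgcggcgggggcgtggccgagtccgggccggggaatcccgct
Irf2 promoter: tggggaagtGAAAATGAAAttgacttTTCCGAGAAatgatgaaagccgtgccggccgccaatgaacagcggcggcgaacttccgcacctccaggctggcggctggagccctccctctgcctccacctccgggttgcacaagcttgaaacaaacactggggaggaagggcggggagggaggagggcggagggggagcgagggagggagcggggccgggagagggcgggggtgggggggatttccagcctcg
Irf8 promoter: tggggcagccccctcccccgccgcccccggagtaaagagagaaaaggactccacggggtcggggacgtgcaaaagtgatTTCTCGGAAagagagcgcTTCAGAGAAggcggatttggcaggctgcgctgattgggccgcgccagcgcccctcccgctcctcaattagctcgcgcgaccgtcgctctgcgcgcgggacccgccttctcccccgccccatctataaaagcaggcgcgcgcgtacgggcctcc

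Irf7, the gene carried by the vector and the master factor for interferon-alpha genes, checks the labels. Its spliced probe gave processed signals of 4486, 4963 and 5012 on the IRF7 arrays, against 246, 195 and 210.5 on the base-vector arrays. The groups lay far apart, and Irf7 was well above background on every array, those of the base-vector cells included. The level was 1.80 ± 0.027 in IRF7 cells and -2.47 ± 0.083 in base-vector cells (SD, n = 3 each). The change was 4.28 (SE 0.049, 95% interval 4.16 to 4.40), a fold of 19.4, with an adjusted p of 3.05e-07 by limma. It was 4.19 within slide 1. Of the 15414 genes, 12 rose by more. The array has 1 probe for Irf7, and transcripts of the vector and of the chromosomal gene cannot be told apart with it.

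**Figure D1:**
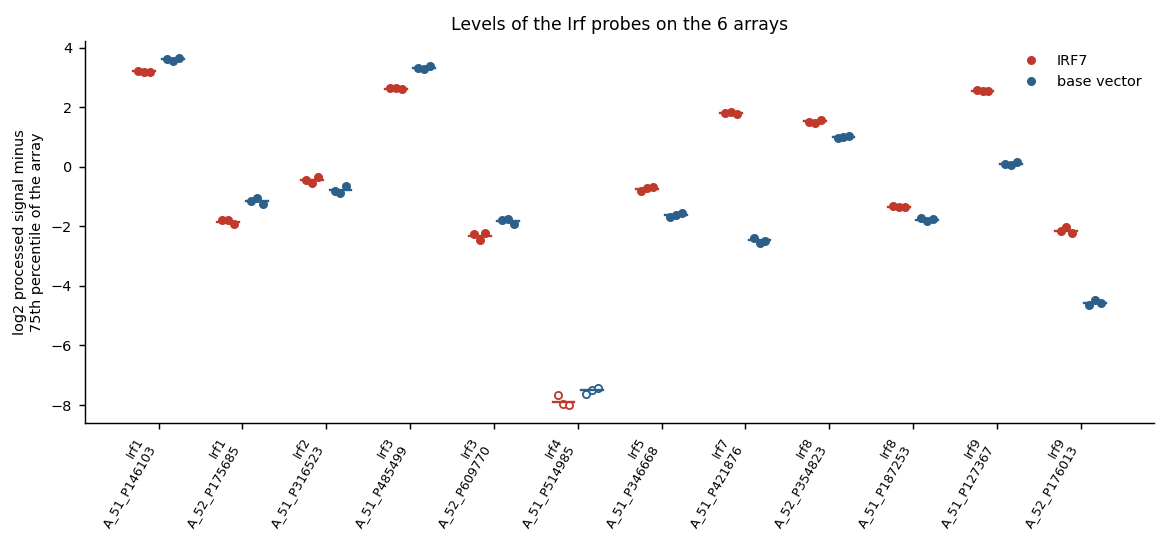
Level of each of the 12 Irf probes on each array, as log2 processed signal minus the 75th percentile of the array, with the IRF7 arrays left of the base-vector arrays. Open points are not well above background, and the bar is the group mean. The groups do not overlap for any of the 11 tested probes, and Irf4 is open on all 6 arrays. Different probes bind with different efficiency, so heights are comparable within a probe only.

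Irf9, the DNA-binding subunit of the complex formed with STAT proteins, was the other member that changed at least 2-fold. Its brighter probe, A_51_P127367 (chr14:50476767-50476826, mm7), gave 7712, 8052 and 8525 on the IRF7 arrays, against 1375, 1189 and 1303 on the base-vector arrays. The lowest IRF7 array was several times the highest base-vector array. The level was 2.55 ± 0.023 in IRF7 cells and 0.10 ± 0.052 in base-vector cells (SD, n = 3 each). Irf9 rose by 2.45 (SE 0.037, 95% interval 2.36 to 2.54), a fold of 5.48 (limma, adjusted p = 7.11e-07), and by 2.46 within slide 1. Only 0.889% of the genes tested changed by more in either direction. The spliced Irf9 probe shown above was dimmer, at 292, 339 and 309 in IRF7 cells and 52.2, 51.4 and 48.9 in base-vector cells. It gave nearly the same change, 2.42 (SE 0.066, adjusted p = 5.08e-06 over all probes), and the value of each Irf9 probe lay within the interval of the other. With normexp background correction the dim probe gave 1.44 and the bright one 2.39.

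Stat2, which joins Irf9 in the complex and carries its activation domain, moved with it. Stat2 had signals of 8246, 8516 and 9037 in IRF7 cells, against 2252, 2050 and 2016 in base-vector cells. The groups did not overlap, and Stat2 rose by 1.83 (SE 0.031).

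Irf3, the constitutively made sensor-activated factor and the closest functional partner of Irf7, was lower in IRF7 cells. Its brighter probe, A_51_P485499 (chr7:41178031-41178090, mm7), read 8026, 8625 and 8964 in IRF7 cells, against 12883, 11232 and 12143 in base-vector cells. Every IRF7 array lay below every base-vector array. The level was 2.63 ± 0.0075 in IRF7 cells and 3.33 ± 0.043 in base-vector cells (SD, n = 3 each). Irf3 fell by 0.70 on the log2 scale (SE 0.032, limma, adjusted p = 2.19e-05), 1.62-fold lower, and its change within slide 1 was -0.69. The second probe, A_52_P609770 (chr7:41173735-41173794), read 269, 253 and 315 in IRF7 cells and 374, 344 and 307 in base-vector cells. Those signals overlap as scanned and separate once each array is scaled, with a change of -0.49 (SE 0.085, adjusted p = 0.00390 over all probes). Unscaled, this second probe did not pass, at -0.29 (adjusted p = 0.0583).

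Irf5, which acts downstream of Toll-like receptors through Myd88 and drives inflammatory cytokine genes, was higher. Its single probe, A_51_P346668 (chr6:29469047-29469106, mm7), read 734, 853 and 917 in IRF7 cells, against 404, 377 and 400.2 in base-vector cells. The ranges were well separated. The level was -0.73 ± 0.077 in IRF7 cells and -1.61 ± 0.064 in base-vector cells (SD, n = 3 each). Irf5 rose by 0.88 (SE 0.054, 95% interval 0.75 to 1.01), a fold of 1.84 (limma, adjusted p = 6.10e-05), and by 0.94 within slide 1. In either direction, 7.71% of the genes tested changed by more.

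Irf1 and Irf2 bind the same element with opposite known effects, Irf1 as an activator of interferon-gamma response genes and Irf2 largely as its antagonist, and they moved in opposite directions. The brighter Irf1 probe, A_51_P146103 (chr11:53733970-53734029, mm7), read 12078, 12709 and 13348 in IRF7 cells, against 15803, 13527 and 14702 in base-vector cells. The groups do not overlap, though the highest IRF7 array comes near the lowest base-vector array. The level was 3.20 ± 0.019 in IRF7 cells and 3.61 ± 0.046 in base-vector cells (SD, n = 3 each). Irf1 fell by 0.40 on the log2 scale (SE 0.034, limma, adjusted p = 0.000199), 1.32-fold lower, and its change within slide 1 was -0.41. Without scaling the change was -0.21 and did not pass (adjusted p = 0.0947).

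The spliced Irf1 probe read 371, 399 and 387 in IRF7 cells, against 589, 561 and 493 in base-vector cells, and here too the groups stayed apart. Its change was -0.70 (SE 0.067, adjusted p = 0.000364 over all probes), 1.63-fold lower. The 95% interval of this probe, -0.87 to -0.54, does not meet that of the brighter probe in the same fit, -0.49 to -0.32. The 2 Irf1 probes thus agree on direction and differ in size.

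Irf2 had the smallest change of the 7 tested members. Its probe, A_51_P316523 (chr8:45625001-45625060, mm7), read 947, 954 and 1144 in IRF7 cells, against 735, 626 and 745 in base-vector cells. The groups do not overlap, and after scaling the gap between them was 0.11 on the log2 scale. The level was -0.45 ± 0.098 in IRF7 cells and -0.78 ± 0.12 in base-vector cells (SD, n = 3 each). Irf2 rose by 0.33 (SE 0.077, 95% interval 0.14 to 0.52), a fold of 1.26 (limma, adjusted p = 0.0120). Larger changes in either direction were seen in 36.6% of the genes tested. Within slide 1 the change was 0.36 (adjusted p = 0.0393), and with slide as a block in the fit of all 6 arrays it did not pass (0.36, adjusted p = 0.0573). It did not pass with median centring of the arrays either (0.30, adjusted p = 0.0819).

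**Figure D2:**
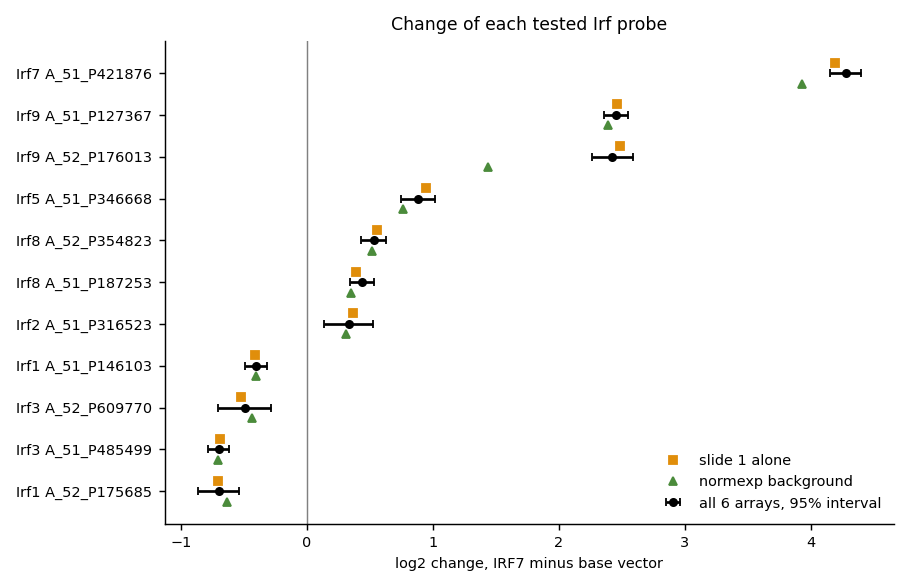
Change of each of the 11 tested Irf probes, as the IRF7 mean minus the base-vector mean on the log2 scale. Black points with bars are all 6 arrays with the 95% interval, squares are slide 1 alone and triangles are normexp background correction. Probes of Irf7 and Irf9 lie farthest right, between 2.42 and 4.28 with all arrays, and the Irf3 and Irf1 probes lie left of 0. Slide 1 alone keeps each probe on the same side.

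Irf8 and Irf4 are known as lineage factors of immune cells, Irf8 in monocytes and dendritic cells and Irf4 in lymphocytes, and both bind composite sites with Spi1. The brighter Irf8 probe, A_52_P354823 (chr8:119391398-119391457, mm7), read 3700.5, 3902 and 4374 in IRF7 cells, against 2531, 2282 and 2406 in base-vector cells. The groups are separate, and the probe is well above background in both. The level was 1.53 ± 0.050 in IRF7 cells and 1.00 ± 0.035 in base-vector cells (SD, n = 3 each). Irf8 rose by 0.53 (SE 0.038, limma, adjusted p = 0.000112), a fold of 1.44, and by 0.56 within slide 1. The second Irf8 probe, A_51_P187253 (chr8:119390963-119391022), read 520.1, 549 and 571 in IRF7 cells and 390.1, 323 and 347 in base-vector cells, a change of 0.43 (SE 0.038, adjusted p = 0.000274 over all probes). The 2 Irf8 probes gave overlapping intervals. Irf4 did not exceed background on any of the 6 arrays, at 6.30, 5.62 and 5.64 in IRF7 cells and 6.54, 6.39 and 6.83 in base-vector cells, so it was not tested and has no fold.

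Markers of other cells are given here because Irf8 is best known from immune cells, and in bulk RNA fewer cells of a type and less RNA per cell cannot be told apart. Ptprc, carried by all leukocytes, exceeded background on 0 IRF7 arrays and 1 base-vector array, and Itgam, Fcgr1 and Itgax were above it on none. Some other myeloid markers were above background on more IRF7 arrays than base-vector arrays. The share of all gene spots well above background was 56.8%, 59.7% and 58.9% on IRF7 arrays and 56.8%, 55.6% and 54.3% on base-vector arrays. The part of this share in the marker counts was not tested. Csf1r was above background on 3 IRF7 arrays and 0 base-vector arrays, with a change of 0.26 that did not pass (adjusted p = 0.322), Lyz2 on 2 and 0, Adgre1 on 1 and 0, and Mpo on 2 and 1 (change 0.29, adjusted p = 0.232). Cd14 rose by 0.38 (limma, adjusted p = 0.000217) and Cd68 had a change of 0.0072 (adjusted p = 0.868). Of 10 myeloid markers, 2 (Cd68 and Cd14) were above background on all 6 arrays and 3 on none, and their summed signal over the array's 75th percentile was 2.86 to 3.05 in IRF7 cells and 2.34 to 2.46 in base-vector cells. Of 10 lymphocyte markers, 2 were above on all arrays and 6, among them Cd79a and Ms4a1, on none (summed 0.264 to 0.293 in IRF7 cells, 0.237 to 0.434 in base-vector cells). For plasmacytoid dendritic cells the counts were 2 and 2 of 5 markers, Siglech on none (1.09 to 1.24 in IRF7 cells, 1.02 to 1.39 in base-vector cells). The luminal epithelial markers of the labelled tissue were above background on all arrays for 7 of 9 genes (384 to 402 in IRF7 cells, 349 to 369 in base-vector cells) and the basal ones for 3 of 5 (16.3 to 17.7 in IRF7 cells, 16.0 to 16.7 in base-vector cells). Markers of fibroblasts and endothelium, above on all arrays for 2 of 8 genes and on none for 4, summed to 2.61 to 2.71 in IRF7 cells and 5.69 to 5.82 in base-vector cells. Such a sum is carried by its brightest probes, and the members of this list went both ways: Pdgfra (-1.21) and Pdgfrb, above background on 0 IRF7 arrays and 3 base-vector arrays, were lower, and Cdh5 (1.06) was higher. The part of these markers in the Irf8 value was not tested.

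Of the 7 members tested, 5 were higher and 2 lower, or 4 of 6 higher when Irf7 itself is set aside, where 61.0% of all genes passed in one direction or the other. No member changed sign under another scaling, but Irf1 no longer passed without scaling and Irf2 no longer passed with median centring. The test was passed by 7 probes that were higher and 4 that were lower, where 58.7% of all probes passed, 30.6% higher and 28.1% lower. All 11 tested probes had groups that do not overlap, as did 66.1% of all probes and 67.8% of all genes. That every tested member passed therefore says little in a comparison where most genes did. Size sets 2 members apart: Irf7 and Irf9 changed at least 2-fold, as did 5.88% of the genes tested. The other 5 changed less than 2-fold. The median absolute change of the genes that passed was 0.35. Irf2 at 0.33 and Irf1 at -0.40 lay near it.

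**Figure D3:**
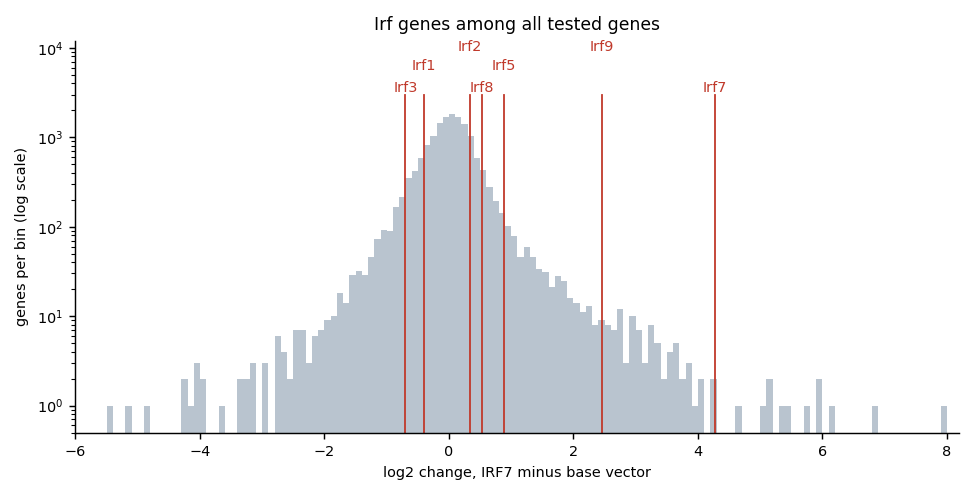
Number of tested genes in each bin of log2 change, IRF7 minus base vector, on a log scale, with each of the 7 tested Irf genes marked at its own change. Irf7 at 4.28 and Irf9 at 2.45 lie in the right tail, and the other 5 lie between -0.70 and 0.88, where most genes lie.

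Neighbouring genes were compared with each member, because around several members more genes passed in one direction than in the other. Over all genes 29.1% were lower in IRF7 cells. Around Irf7, 116 tested genes within 5 Mb had a median change of -0.30, with 10 higher, 71 lower and 35 that did not pass, and none of them rose as far as Irf7. Irf3 lies on the same chromosome, where the 132 genes within 5 Mb had a median of -0.39, with 8 higher, 78 lower and 46 that did not pass, and 33 of them fell further than Irf3. The median over the 1134 tested genes of chromosome 7 was -0.38. Irf1 lies on chromosome 11, where 1322 tested genes had a median of -0.14, and its 114 neighbours had a median of -0.26. Of these neighbours 13 were higher, 60 were lower and 41 did not pass, and 32 had a lower change than Irf1. The difference between these shares and that over all genes was not tested.

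Irf2 lies among 25 tested genes with a median of 0.21, of which 15 were higher and 2 lower. 8 of them rose more than Irf2, among them Tlr3, a sensor of double-stranded RNA (2.01), and Helt (3.26). For Irf8 the 105 neighbours had a median of 0.10, with 41 higher and 20 lower, and 8 rose more than Irf8. The median over the 789 tested genes of chromosome 8, which holds Irf2 and Irf8, was 0.10. Irf9 and Irf5 stood out more from their surroundings. The 137 neighbours of Irf9 had a median of 0.07, with 48 higher and 36 lower, and only Phf11a (3.01) and Phf11d (2.94) rose more. The 52 neighbours of Irf5 had a median of -0.04, with 11 higher and 10 lower, and only Plxna4 (2.14), a semaphorin co-receptor, rose more. The part of neighbouring genes in the members' values was not tested.

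**Figure D4:**
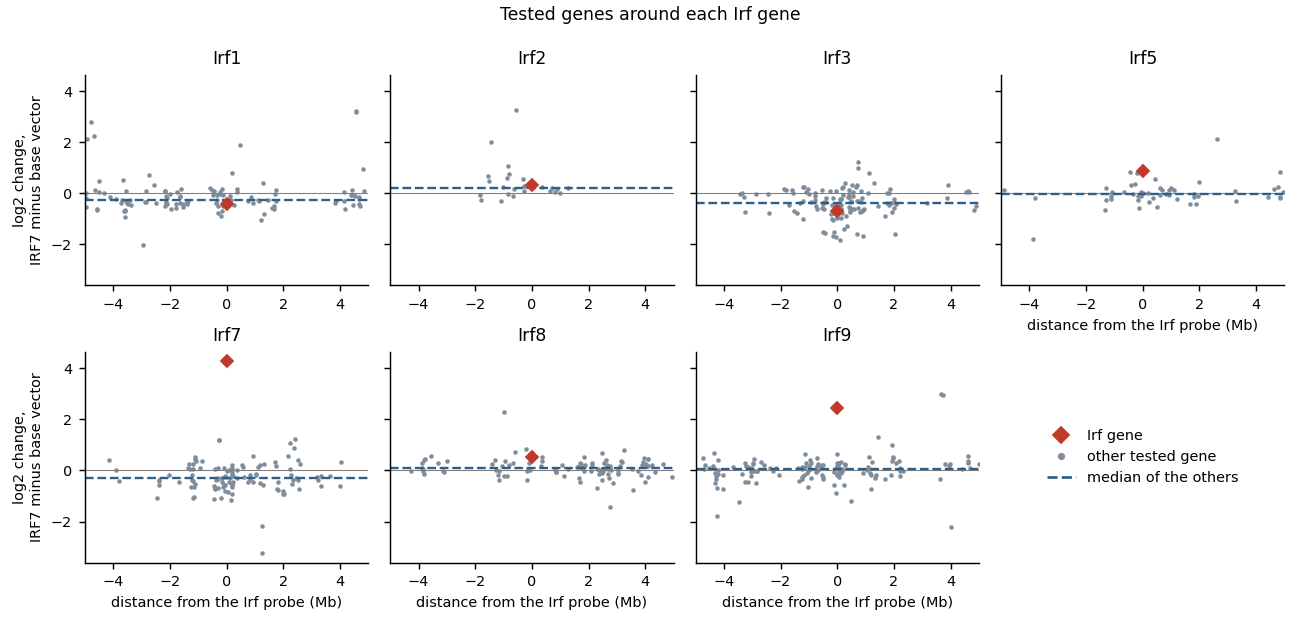
Log2 change, IRF7 minus base vector, of the tested genes within 5 Mb of each Irf gene, against distance from the Irf probe in Mb. The diamond is the Irf gene and the dashed line the median of the others. The dashed line lies below 0 for Irf1 (-0.26), Irf3 (-0.39) and Irf7 (-0.30) and above it for Irf2 (0.21).

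The genes whose scaled profile over the 6 arrays lay nearest to that of Irf7, by root mean square difference of log2 levels centred per gene, were Gbp3, an interferon-induced guanylate-binding protein (difference 0.119, change 4.05), Sulf2, an enzyme that trims sulphate from heparan sulphate (0.136, change 4.07), and Trim30a, an interferon-induced tripartite-motif protein (0.182, change 3.96). Those nearest to Irf9 were Parp9, a mono-ADP-ribosyltransferase (0.0277, change 2.43), Oasl2, an oligoadenylate synthetase-like protein (0.0385, change 2.52), and Scara5, a ferritin receptor (0.0449, change 2.45). With 2 groups of 3 arrays this measure mostly finds genes with an equal change.

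Genes that act upstream of Irf3, Irf5 and Irf7 were measured for 18 of 19 listed, and 10 rose, 4 fell and 4 did not pass (median change 0.24, against 0.03 over all genes). For this list and those below, the share over all genes was 61.0% passing, 31.9% higher and 29.1% lower. A count near these shares says little about a list. The rises were led by receptors of nucleic acid. Ddx58, the RNA sensor RIG-I, rose by 2.47 (SE 0.085), Ifih1, the sensor MDA5, by 2.01 (SE 0.040), Tlr3 by 2.01 (SE 0.066) and Cgas, the DNA sensor, by 1.01 (SE 0.033). The steps between sensor and factor moved less. Myd88, the Toll-like receptor adaptor, rose by 0.63 (SE 0.030), while Mavs, the mitochondrial adaptor of the RNA sensors, had a change of -0.38 (SE 0.031, limma, adjusted p = 0.000177), which without scaling was -0.19 and did not pass (adjusted p = 0.143). The other 3 falls, named after their values were seen, were those of Sting1, the adaptor of Cgas (-0.21), Ticam1, the adaptor of Tlr3 (-0.29), and Traf6, a ubiquitin ligase behind Myd88 (-0.15). None of the 4 falls passed without scaling. The kinases that phosphorylate Irf3 and Irf7 did not pass, with changes of 0.12 for Tbk1 (adjusted p = 0.0747) and -0.13 for Ikbke (adjusted p = 0.282), and without scaling the sign for Ikbke turned to 0.06.

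Of 14 genes of the interferon receptors and their signalling, 4 rose, 3 fell and 7 did not pass (median 0.06). Thus 7 of 14 passed, where 61.0% of all genes did. Besides Stat2, Socs1, a feedback inhibitor of the receptor kinases, rose 2.30-fold (log2 SE 0.056), and the receptor kinase Jak2 had a change of -0.63 (SE 0.036). Of the other 2 falls, also named after the fact, the receptor kinase Tyk2 had -0.40 and the phosphatase Ptpn6 -0.34. The receptor chains Ifnar1, Ifnar2, Ifngr1 and Ifngr2, singled out after their values were seen, did not pass, with changes of 0.12, -0.06, 0.12 and -0.11. All 15 listed cofactors and negative regulators of the family were measured, and 10 rose, 3 fell and 2 did not pass (median 0.21). Usp18, which removes Isg15 and restrains the interferon receptor, rose by 6.20, a fold of 73.3, and Ifi35 and Nmi, which bind each other, rose by 1.77 and 0.75. Trim21, a ubiquitin ligase of the family, rose by 0.99. The 3 falls, named after their values were seen, were those of Irf2bp1 (-0.55) and Irf2bp2 (-0.48), corepressors that bind Irf2, and of Trim28 (-0.63), a corepressor that modifies Irf7 with SUMO.

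Direct targets of Irf3 and Irf7 in virus infection rose in 8 of 9 cases, and 1 fell (median 2.02). Ifit3, an RNA-binding antiviral protein, rose by 3.64, the ubiquitin-like Isg15 by 2.76 and Ifit1 by 2.17. Ifnb1, the interferon-beta gene, read 84.6, 106 and 101 in IRF7 cells, against 8.55, 8.06 and 8.59 in base-vector cells, where no array put it well above background. Its fold is at least 2.56, set by the lowest signal well above background on the base-vector arrays. Ccl5, a chemokine named after its value was seen, was the 1 that fell (-0.24). With Ifnb1 at that bound the median of the list was 1.36, and with normexp it was 1.03, the value of Ifnb1.

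Listed targets of the Irf9 complex were on the array for 13 of 15, and all 12 that could be tested rose at least 2-fold (median 3.00). Ifi44 rose by 6.89, Oas3 by 5.70, Oas1a by 3.24 and Eif2ak2, the RNA-activated kinase PKR, by 2.18. Under the other ways of processing, the smallest changes were 5.98 for Ifi44, 4.52 for Oas3, 3.20 for Oas1a and 2.14 for Eif2ak2. Of 10 listed targets with a promoter in the table, 3 held the response element core and 3 a gamma-activated site. Over all genes with a promoter the shares were 3.46% and 8.13%, and the difference was not tested. Targets of Irf1 were tested for 15 of 18, and 13 rose and 2 fell (median 0.62), while Irf1 itself was lower, and several of these genes are also known targets of other interferon pathways. Gbp3 rose by 4.05, Gbp2, also a guanylate-binding protein, by 1.36, and Ptgs2, the inducible cyclooxygenase, by 1.10. The falls were Vcam1, an adhesion molecule (-1.54), and, named after its value was seen, Casp1, the inflammasome protease (-0.31).

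Immune-cell partners of Irf4 and Irf8 were mostly not measurable in these tumour cells. Of 11 on the array 5 were tested, and 2 rose, 2 fell and 1 did not pass (median -0.07). Spi1, the partner of both factors at composite sites, was above background on 0 arrays. Batf3, which works with Irf8 in dendritic cells, rose by 1.01, and Bcl6 and Tcf3, both regulators of B-cell stages, had changes of -0.30 and -0.21. Neither fall passed without scaling, at -0.096 for Bcl6 (adjusted p = 0.423) and -0.0099 for Tcf3 (adjusted p = 0.936). Tcf3 also failed to pass on slide 1 alone (-0.18, adjusted p = 0.0503), with slide as a block (-0.18, adjusted p = 0.0548) and with median centring (-0.24, adjusted p = 0.0908). Batf2 had a change of 0.74 (SE 0.24, adjusted p = 0.0385), which no longer passed on leaving out any of 5 of the 6 arrays or on slide 1 alone (0.30, adjusted p = 0.235). Without scaling of the arrays, the genes that passed as lower numbered 0 of 18 upstream activators, 1 of 14 receptor and signalling genes, 3 of 15 cofactors, 1 of 15 targets of Irf1, and 0 of the 9 virus-type targets, the 12 targets of the Irf9 complex and the 5 partners. Those that passed as higher then numbered 11 upstream activators, 7 receptor and signalling genes, 11 cofactors, 8 virus-type targets, 12 targets of the complex, 13 targets of Irf1 and 2 partners.

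**Figure D5:**
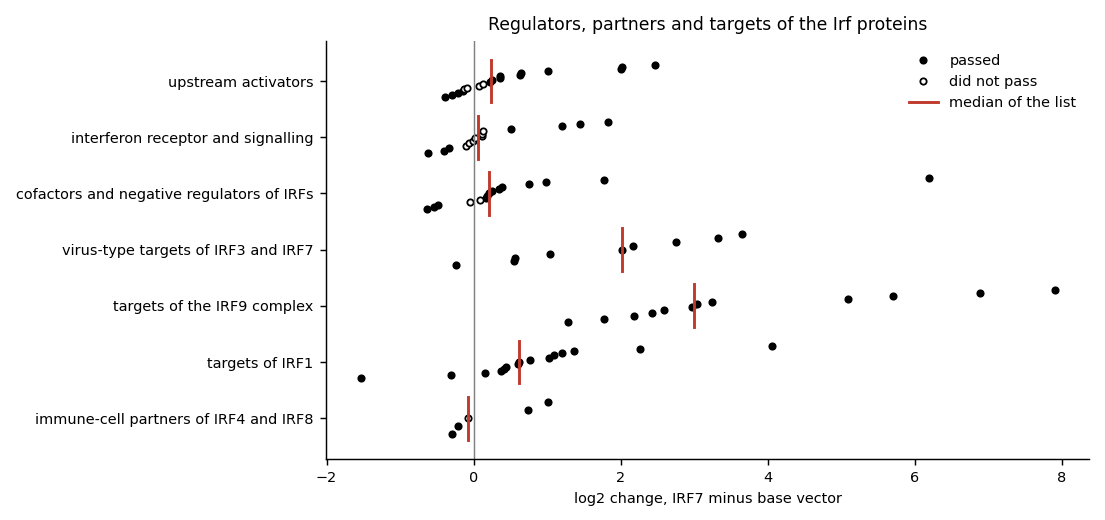
Log2 change, IRF7 minus base vector, of each tested gene of the 7 lists, 1 row per list. Filled points passed the test, open points did not, and the vertical bar is the median. Targets of the Irf9 complex (median 3.00) and of Irf3 and Irf7 (2.02) lie farthest right, and the receptor list (0.06) lies near 0.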

How the data were processed

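RNA of 3 IRF7 and 3 base-vector cultures was measured on single-colour Agilent arrays, with labelling from 0.2 ug of total RNA, per the labels' protocols. Per the file headers, the authors' scanner files hold processed signal intensity per spot from Agilent Feature Extraction (9.5.3.1, as also named in the submitters' processing notes), already background-corrected, and probe positions in build mm7. The deposited value table holds the same intensity values (largest difference 0). Of 45018 spots 1639 were controls, and 43379 spots of 41174 probes were used. Outlier-flagged spots (111 to 121 per array) were left out. The number of arrays limits the precision.

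Signals were scaled here to the 75th percentile of each array and taken to log2, spots of a probe were averaged, and a probe entered the tests if 3 or more of the 6 arrays put it well above background. Each gene was represented by its brightest probe, by mean signal. limma 3.58.1 in R 4.3.3 (lmFit, eBayes) was run across all genes and all probes, and the pipeline was tested on simulated data. Probe names were updated through RefSeq for 22951 probes by accession, 6659 by symbol and 3109 by older symbol, and 8455 kept the file's name. All probes of the 8 genes are described; of each list, the up to 4 genes with the smallest p are named, with Ifnb1, Stat2, Tbk1, Ikbke, Mavs, Myd88 and Spi1. The members and lists were chosen with earlier results of these data known. Probes of the family outside these 8 genes are not reported here. Exon, intron and coding positions of the mm7 probes, and protein sequences, were not analysed here. Alternatives tried were normexp, quantile, median and no scaling, other filters, probe averaging, eBayes with trend, the slide as a block or slide 1 alone, the replicate number as a block, and leaving out each array. Nothing in the labels beyond independent experiments describes how cultures were kept apart, so p-values measure the spread between these arrays. They do not measure how far separately made pools of clones would differ.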

Additional observations from a re-analysis of the deposited data

How the results depend on the processing

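Over 11 results on the Irf genes and their second probes and 194 alternatives of them, the direction was kept in all 194 and the side of the threshold in 190. The exceptions were Irf1 without scaling (-0.21, adjusted p = 0.0947), the second Irf3 probe without scaling (-0.29, adjusted p = 0.0583), and Irf2 with median centring (0.30, adjusted p = 0.0819) and with slide as a fixed block (0.36, adjusted p = 0.0573). Without scaling 1 member was lower in place of 2. Ikbke, not past the threshold in either case, turned to 0.065 without scaling (adjusted p = 0.652). Why the scaling moves these values was not tested.

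Leaving out each array in turn gave changes of 4.24 to 4.32 for Irf7, 2.43 to 2.48 for Irf9, 0.85 to 0.92 for Irf5, 0.50 to 0.55 for Irf8, 0.28 to 0.40 for Irf2, -0.43 to -0.38 for Irf1 and -0.72 to -0.68 for Irf3, with 5 members higher and 2 lower each time. Genes that passed numbered 9403 with all arrays, 8270 to 9079 with 1 left out, 6207 with median centring (45.4% of them higher) and 14466 with no filter on dim probes (32.8% higher), where more genes are tested. Probes that passed numbered 13809, and 21506 with no filter. Slide 1 alone holds 1 base-vector array, which is assumed to vary like the IRF7 arrays.

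Replicate numbers are shared by the groups. Same-numbered arrays deviated together with correlations of 0.0545, 0.182 and 0.230, and every array correlated best with its own number, but 1 pair is too weak to treat the numbers as a pairing. With the replicate number as a block 9741 genes passed, and no call on an Irf gene changed.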
